A study of Mus musculus with 18 samples.

Results

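The 4 h response of HET macrophages to lipopolysaccharide (LPS) was read from 6 of the 18 arrays of the series: 3 titled Wbp7+/-, LPS 4hrs and 3 titled Wbp7+/-, untreated. Members were chosen by title alone, and each difference was taken as 4 h minus untreated within a replicate number. The cells were bone marrow-derived macrophages (BMDM) on day 7 of differentiation, grown with L929-conditioned medium from mice of mixed C57BL/6 and 129/Ola background. Both groups carried a single intact copy of Wbp7 (Wbp7+/-, HET), so that the untreated control is not wild type. The treated cells were given LPS at 10 ug/ml for 4 h. The other arrays, with 3 in each group, are HET cells at 2 h of LPS, and Wbp7-/- (KO) cells untreated, at 2 h and at 4 h. The mice's age and the nature of the Wbp7 allele are not stated. Nothing states that replicates came from separate animals, and the p-values measure the spread between these arrays, whose number limits the precision.

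LPS, a component of the outer membrane of Gram-negative bacteria, is bound by Tlr4 with the help of Cd14 and Ly96. From the cell surface the receptor signals through Myd88 to NF-kB and MAP kinases, which turn on cytokine and chemokine genes. From endosomes it signals through Ticam1 to Irf3 and interferon beta, and secreted interferon then acts through its receptor on antiviral genes. Wbp7, listed on the array as Kmt2b, encodes an enzyme that methylates histone H3 at lysine 4.

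Promoter sequences show the elements through which these routes are known to act. Below are the 250 bases before the start of 5 genes whose transcripts rose, from RefSeq on build GRCm38.p6, 5′ to 3′ on the gene's strand. Capitals mark matches to the NF-kB consensus of 10 letters or to the interferon-stimulated response element (ISRE), searched as GAAA, any 2 letters and GAAA, on either strand, and AP-1 matches stay in lower case. These 5 were chosen after their values and motifs were seen.
Il6 (chr5:30012864-30013113, plus strand): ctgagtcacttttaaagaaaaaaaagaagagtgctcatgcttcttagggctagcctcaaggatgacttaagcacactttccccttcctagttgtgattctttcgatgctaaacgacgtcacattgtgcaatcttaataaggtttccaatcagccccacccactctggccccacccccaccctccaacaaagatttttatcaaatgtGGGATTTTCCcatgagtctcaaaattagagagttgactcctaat
Nfkbia (chr12:55492648-55492897, minus strand): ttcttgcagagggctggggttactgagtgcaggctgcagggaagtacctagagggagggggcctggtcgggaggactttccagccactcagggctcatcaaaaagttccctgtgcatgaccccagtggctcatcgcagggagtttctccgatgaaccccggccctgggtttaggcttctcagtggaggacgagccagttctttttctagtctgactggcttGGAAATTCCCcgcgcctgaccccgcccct
Cxcl10 (chr5:92348890-92349139, minus strand): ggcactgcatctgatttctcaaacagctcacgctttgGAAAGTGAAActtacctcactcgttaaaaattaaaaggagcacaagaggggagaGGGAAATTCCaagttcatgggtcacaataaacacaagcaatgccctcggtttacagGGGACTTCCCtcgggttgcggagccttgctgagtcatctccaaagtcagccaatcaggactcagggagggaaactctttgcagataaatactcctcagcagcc
Gbp5 (chr3:142496684-142496933, plus strand): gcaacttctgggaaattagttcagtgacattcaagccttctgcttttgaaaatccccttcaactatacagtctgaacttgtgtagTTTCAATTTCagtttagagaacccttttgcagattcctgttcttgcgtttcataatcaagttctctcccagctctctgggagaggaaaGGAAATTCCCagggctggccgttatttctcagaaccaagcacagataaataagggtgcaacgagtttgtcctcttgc
Ifit1 (chr19:34640639-34640888, plus strand): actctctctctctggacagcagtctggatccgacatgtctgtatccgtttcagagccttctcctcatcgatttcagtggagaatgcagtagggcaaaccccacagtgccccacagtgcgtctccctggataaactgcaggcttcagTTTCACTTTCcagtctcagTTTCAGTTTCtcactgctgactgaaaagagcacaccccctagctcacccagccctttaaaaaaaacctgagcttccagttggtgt

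The Il6 and Nfkbia windows each hold 1 NF-kB match, Cxcl10 holds 2 beside 1 ISRE match, Gbp5 holds 1 of each kind and Ifit1 holds 2 ISRE matches. Of 15507 measured genes with a listed window (the first listed for each gene), 4.15% hold an NF-kB match, 2.92% an ISRE match and 6.08% a match to the AP-1 element TGANTCA. Among the 686 genes with a window that were called and at least 2-fold higher at 4 h, the shares were 9.04%, 9.48% and 7.73%. Among the 223 of them at least 4-fold higher, they were 13.9%, 14.3% and 11.7%. Among the 916 called and at least 2-fold lower, they were 3.38%, 1.42% and 3.38%. Of the 15 largest rises named below, 8 had a window, and 2 of these held an NF-kB match, 3 an ISRE match and 2 an AP-1 match. Of the 15 largest falls, 12 had a window, with 0, 0 and 1 holding these matches. A match is a string of letters, not a measured binding site, and these shares and counts were not tested.

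The values are RMA expression on the log2 scale, where a difference of 1 is 2-fold, and the plus or minus changes below are log2 differences from limma with their standard error (SE), over 3 arrays in each group. "Rose" and "fell" are used where the p adjusted by Benjamini-Hochberg over all 19475 genes was under 0.05. Array medians lay between 8.05 and 8.13. The arrays of HET replicate 1 stood apart from the other HET arrays: over all genes, the SD of the untreated array's difference from the mean of the other 2 was 0.438, against 0.268 and 0.319 for replicates 2 and 3. Its cell cycle genes were low before treatment, as described with those genes. Parentheses beside a list's counts of rises and falls give those counts without a replicate, without the pairing by replicate number or under another scaling. Kmt2b itself stood at 10.97, 10.49 and 10.51 in untreated HET cells and fell to 10.32, 10.05 and 10.14 at 4 h, by 0.48 (SE 0.14, adjusted p = 0.0108), a call that ended without replicate 1 (−0.41, adjusted p = 0.0637) and with quantile normalization (−0.29, adjusted p = 0.0828). In KO cells its probe set read 10.35, 10.41 and 10.47 untreated, and whether it lies in the deleted part is not known here, so it does not check the genotype labels.

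After 4 h of LPS the HET macrophages had a broad response in both directions, in which the largest rises were far larger than the largest falls. In all, 858 genes were called and at least 2-fold higher (4.41% of those tested), and 1091 at least 2-fold lower (5.6%). The order of these 2 counts turned under quantile normalization, with 927 higher and 850 lower. At 4-fold or more, 285 genes were higher and 90 lower. The largest rise was 8.23, in the cytokine gene Il6, and the largest fall −3.98, in Sesn1, a stress-response gene of the sestrin family. Without the size limit 5202 genes rose (26.7%) and 5517 fell (28.3%), so that a call by itself is common here, and 3057 rose and 4028 fell without the pairing by replicate number. Counted among genes above the 40th percentile of mean level alone, 2898 rose and 5308 fell. Those small calls went with the level of the gene: with genes divided by mean level into 4 classes of equal number, 26.6% of the lowest class were called higher and 2.03% lower, and 18.7% and 54.8% of the next to highest. Of the highest class, 25.1% were called higher and 44.6% lower. No list of genes below was tested against genes of its own level. The arrays also differed in spread, with upper quartiles of 9.84 to 10.04 at 4 h against 10.12 to 10.23 untreated, and lower quartiles of 6.87 to 6.99 against 6.72 to 6.84. The part of this spread in the small calls was tested by quantile normalization alone, under which 8683 genes were called in place of 10719 and 7373 of the calls were shared. The counts at 2-fold or more lay between 1741 and 2139 under every alternative.

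Il6, which encodes a pyrogenic and acute-phase cytokine, read 5.09, 5.22 and 5.03 on the 3 untreated arrays and 13.42, 13.34 and 13.28 at 4 h. That is a rise of 8.23 (SE 0.254, adjusted p = 1.77e-10), or 300.1-fold, and the 3 replicates differed by 0.21 in its size. Il1a, an alarmin cytokine, went from 6.46, 5.95 and 6.24 to 14.00, 13.84 and 13.62, and Nos2, the inducible nitric oxide synthase, from 7.39, 7.13 and 7.07 to 14.01, 13.81 and 13.63. Il1a rose by 7.60 (SE 0.164, adjusted p = 7.62e-12), Nos2 rose by 6.62 (SE 0.18, adjusted p = 7.17e-11), and no treated array came near an untreated one. The untreated values of Il6 and Il1a lay below the lower quartile of signal on every untreated array, and the treated values of Il1a and Nos2 near the top of the range of the arrays, where gene means reach 14.59. How far either end limits these fold sizes was not tested. The other 12 of the 15 largest rises were BC023105, Il1b, Edn1, Gbp5, Gbp4, Cxcl9, Cd69, Iigp1, Il12b, Cxcl11, Lipg and Saa3, between 4.89 and 6.24. They include secreted factors (endothelin Edn1, the chemokines Cxcl9 and Cxcl11, the acute-phase protein Saa3, the lipase Lipg), interferon-induced GTPases and the early activation marker Cd69.

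Sesn1 read 11.61, 11.99 and 12.27 untreated and 7.48, 8.21 and 8.24 at 4 h, and fell by 3.98 (SE 0.287, adjusted p = 2.26e-07). Gcnt1, a branching enzyme of O-glycans, fell from 12.35, 12.11 and 12.11 to 7.84, 8.64 and 8.70, by 3.80 (SE 0.216, adjusted p = 3.29e-08). Pde3b, a cyclic nucleotide phosphodiesterase, fell from 11.72, 10.46 and 9.98 to 7.31, 7.69 and 7.00, by 3.38 (SE 0.273, adjusted p = 5.53e-07). For each of these the lowest untreated array lay above the highest treated one. The other 12 of the 15 largest falls included 4 surface receptors, the oxysterol receptor Gpr183 (fell by 3.13), the cannabinoid receptor Cnr2 (by 2.97), the sphingosine 1-phosphate receptor S1pr1 (by 2.97) and Cd300lb (by 3.22). The others were the desaturase Scd2, the repressor Bhlhe41, the ETS factor Etv5, the fringe glycosyltransferase Lfng, the adaptor Sh2d1b1, and Lhfpl2, Rab3il1 and Otulinl, between 3.20 and 2.84 except Lhfpl2, which fell by 3.31.

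**Figure D1:**
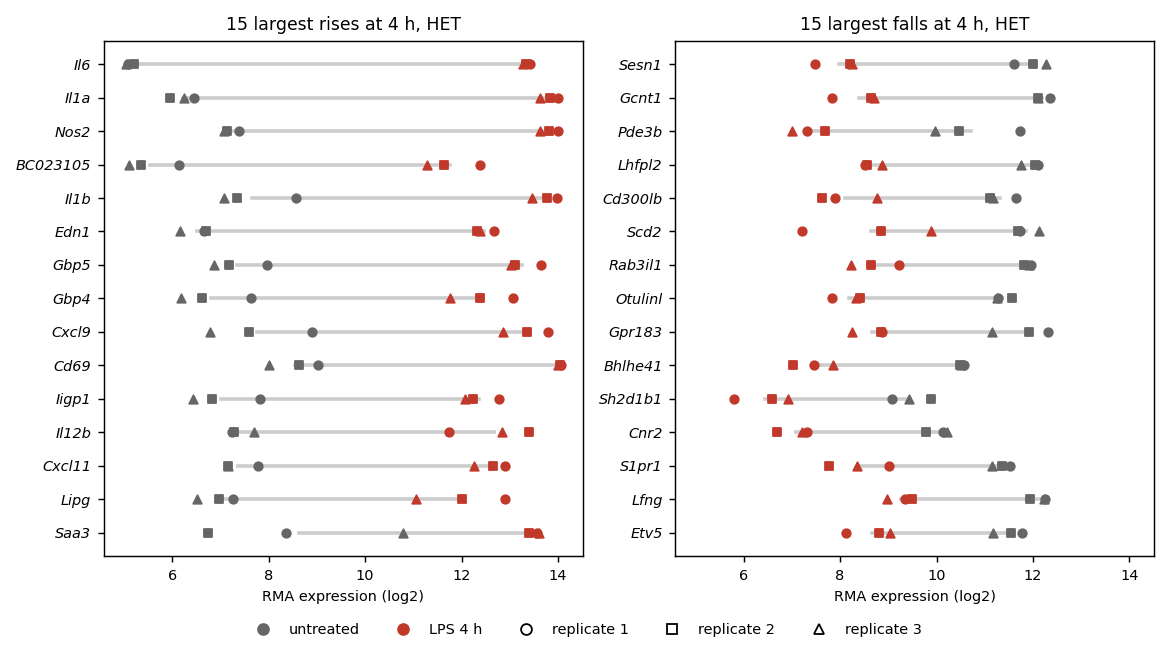
Expression (log2, horizontal axis) of the 15 genes with the largest rises (left) and the 15 with the largest falls (right) in HET macrophages, with grey symbols for untreated arrays, red for LPS 4 h, 1 symbol shape per replicate and a bar joining the group means. Untreated and treated arrays do not overlap for these 30 genes, which was a condition of their choice (of all genes, 24.8% lay wholly higher at 4 h and 21.8% wholly lower), and the replicates of Saa3 lie far apart before treatment (6.75 to 10.79).

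Receptors came first among the genes of the LPS pathway, and they moved in both directions. Of 14 measured genes for Tlr4, its co-receptors and other Toll-like receptors, 8 rose and 2 fell, with a median of 0.51 against 0.085 for all genes tested. Tlr3, the receptor for double-stranded RNA, read 9.40, 9.58 and 9.50 untreated and 12.00, 11.98 and 11.92 at 4 h, a rise of 2.47 (SE 0.151, adjusted p = 5.81e-08). Tlr2 and Tlr6, which pair to sense bacterial lipopeptides, rose by 1.56 and 1.43. Cd14 went from 13.03, 12.29 and 12.31 to 13.62, 13.41 and 13.21, a rise of 0.87 (SE 0.0893, adjusted p = 4.14e-06). Tlr4 itself went the other way, from 10.54, 10.86 and 10.38 to 9.72, 9.14 and 10.14, and fell by 0.93 (SE 0.248, adjusted p = 0.00698). Its fall was 1.73 in replicate 2 and 0.24 in replicate 3, and the call ended without replicate 2 (−0.53, adjusted p = 0.0905). Tlr13, a receptor for bacterial ribosomal RNA, fell by 1.88 (SE 0.18, adjusted p = 2.28e-06). Ly96, the protein that holds the lipid part of LPS, was at 0.22 (adjusted p = 0.2).

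Among 20 measured adaptors and kinases of the pathway, 11 rose and 3 fell. The adaptor Traf1 rose by 3.67 (SE 0.107, adjusted p = 1.09e-10), the ubiquitin ligase Peli1 by 2.49, the MAP kinase kinase kinase Map3k8 by 2.28 and the kinase Ikbke by 1.97. The 2 brightest of the 6 members not called were Traf6, at 0.091 (adjusted p = 0.411), and Map3k7, the kinase TAK1, at −0.10 (adjusted p = 0.263).

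NF-kB genes, and above all those for its inhibitors, rose nearly as a block. Of 14 measured subunits and inhibitors, 13 rose and 11 of them by 2-fold or more, with a list median of 1.82. The exception was Nfkbid, at 0.25 (adjusted p = 0.301). Tnfaip3, the deubiquitinase A20 that shuts off NF-kB signalling, read 9.89, 9.19 and 9.49 untreated and 13.60, 13.12 and 12.69 at 4 h, a rise of 3.61 (SE 0.15, adjusted p = 2.1e-09). The nuclear inhibitor family members Nfkbiz and Bcl3 rose by 2.90 and 2.22, and the cytoplasmic inhibitor Nfkbie by 2.45. Their rise was in place by 2 h: the list median was then 1.97, none of the 14 was called higher between 2 h and 4 h, 2 were called lower, and Tnfaip3 moved by −0.052 (adjusted p = 0.843).

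AP-1 and immediate early factors were mixed, with 14 of 25 higher and 7 lower (9 and 2 without the pairing by replicate number, 12 and 4 without replicate 1, and 15 and 4 with quantile normalization). Batf2 rose by 3.56 (SE 0.26, adjusted p = 2.5e-07), the orphan nuclear receptor gene Nr4a3 by 2.13 and the small Maf factor Mafk by 1.87. Myc, the growth-promoting transcription factor, read 12.59, 12.26 and 12.19 untreated and 9.85, 9.80 and 11.20 at 4 h, and fell by 2.06 (SE 0.305, adjusted p = 9.59e-05). Jund and Fosl2 were at 0.24 (adjusted p = 0.0556) and 0.044 (adjusted p = 0.862).

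Cytokine genes held the largest single changes of any list. Of 29 measured, 23 rose and 21 of these by 2-fold or more, and Tgfb1 (named after its values were seen) fell by 0.23, a call that ended without any 1 of the replicates. The list median was 1.98. Il1b, the main secreted interleukin 1, read 8.57, 7.34 and 7.07 untreated and 13.98, 13.78 and 13.47 at 4 h, a rise of 6.08 (SE 0.193, adjusted p = 2.2e-10). Il12b, the subunit shared by interleukins 12 and 23, read 7.24, 7.29 and 7.70 and then 11.75, 13.41 and 12.85, a rise of 5.26 (SE 0.331, adjusted p = 7.56e-08). In both genes the replicates at a given time lay far closer together than the treated and untreated arrays. Ifnb1, the interferon through which macrophages first respond to LPS, read 6.45, 6.04 and 6.13 untreated, below the lower quartile of each array, and 7.38, 7.94 and 7.61 at 4 h, a rise of 1.43 (SE 0.234, adjusted p = 0.000213). The angiogenic factor Vegfa was at −0.21 (adjusted p = 0.419) and Il23a at 0.93 (adjusted p = 0.185).

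Chemokine genes rose in both classes. Of 13 CC chemokines measured 12 rose, and of 13 CXC chemokines 8 rose and 2 fell (7 and 0 without the pairing). Ccl4, which draws monocytes and T cells, rose by 4.42 (SE 0.0887, adjusted p = 7.62e-12) and Ccl5 by 3.75. Ccl22 and Ccl12 rose by 3.46 and 3.35. Ccl22 rose by 2.52, 5.25 and 2.61 in the 3 replicates, so that replicate 2 had the largest rise. Among CXC genes, Cxcl9 read 8.89, 7.59 and 6.77 untreated and 13.78, 13.37 and 12.86 at 4 h, a rise of 5.58 (SE 0.29, adjusted p = 1.56e-08). Cxcl11, which shares the receptor Cxcr3 with it, rose by 5.24, and the neutrophil attractants Cxcl2 and Cxcl3 by 4.52 and 3.32. Ccl2, the monocyte attractant and a member named after its values were seen, already stood at 13.01 ± 0.46 untreated (SD, n = 3) and rose by 0.76. Ccl6 was at −0.19 (adjusted p = 0.114) and Ppbp at −0.32 (adjusted p = 0.0714).

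Antiviral genes of the interferon response rose nearly without exception. Of 37 measured (of 40 listed), 35 rose and 31 of them by 2-fold or more, with a median of 1.83. Mx2 and Mx1, GTPases that block virus replication, rose by 4.20 (SE 0.209, adjusted p = 1.06e-08) and 3.67. Ifit2, which binds viral RNA, rose by 3.33, and Oasl1, of the oligoadenylate synthetase family, by 3.13. Mx1 read 10.60, 9.34 and 8.78 untreated, with replicate 1 highest, and 13.44, 13.13 and 13.18 at 4 h, with the 3 arrays close together. Lgals3bp and Ifi44l did not pass, at 0.26 (adjusted p = 0.0713) and 0.038 (adjusted p = 0.732). Between 2 h and 4 h 23 of the 37 rose further, and the list median went from 1.33 to 1.83.

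The guanylate-binding proteins (Gbp) and immunity-related GTPases, which attack the vacuoles of intracellular pathogens, had the highest median of all lists, 3.79. The 8 measured of 14 listed rose, Irgm1 least, by 1.90. Gbp5 read 7.97, 7.18 and 6.88 untreated and 13.65, 13.12 and 13.02 at 4 h, a rise of 5.92 (SE 0.129, adjusted p = 7.62e-12). Gbp4 and Iigp1 rose by 5.60 and 5.35, and Gbp3 by 4.05. Whether probe sets of such related genes also bind one another's transcripts was not tested.

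Among regulators of the interferon and cytokine response, inhibitors had the largest rises. Of 25 measured interferon regulatory factors, Stat and Socs genes and their receptors, 18 rose and 5 fell (3 fell with quantile normalization). Socs3 and Socs1, inhibitors of cytokine receptor signalling, rose by 4.68 (SE 0.103, adjusted p = 7.62e-12) and 3.69, and Cish, of the same family, by 3.06. Irf1 rose by 2.68. Of 20 measured feedback phosphatases and mRNA decay factors, 12 rose and 5 fell. The MAP kinase phosphatases Dusp2 and Dusp16 rose by 3.18 and 2.68. Dusp6, a phosphatase of the kinase ERK, fell by 2.41 (SE 0.327, adjusted p = 4.68e-05) and the mRNA decay factor Zfp36l1 by 2.47 (SE 0.213, adjusted p = 9.71e-07).

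Nos2 had the largest rise among the effector enzymes, followed by the prostaglandin synthase Ptgs2. The arginine, itaconate and redox list of 18 measured genes had 10 higher and 5 lower (3 lower without replicate 1, and 2 without the pairing). Slc7a2, which imports arginine for Nos2, rose by 4.13 (SE 0.205, adjusted p = 1.06e-08), and Acod1, which makes itaconate, by 3.43 (SE 0.275, adjusted p = 5.2e-07). The cystine importer Slc7a11 rose by 3.93. Gclc, the catalytic subunit of the first enzyme of glutathione synthesis and a member named after its values were seen, fell from 12.02, 11.78 and 12.13 to 8.96, 9.46 and 10.52, by 2.33 (SE 0.215, adjusted p = 1.73e-06). In prostaglandin synthesis, Ptgs2 rose by 4.81 (SE 0.157, adjusted p = 2.4e-10) and Ptges by 3.67 (SE 0.233, adjusted p = 7.98e-08). The thromboxane synthase Tbxas1 fell by 0.96. Pla2g4a rose by 0.87, a call that ended without replicate 1 (0.24, adjusted p = 0.185). Of 14 eicosanoid genes measured, 4 rose and 6 fell (3 and 2 without the pairing by replicate number). Of all genes, 26.7% rose and 28.3% fell. The eicosanoid list's median level untreated was 9.74, and 54.8% of all genes in the next to highest class of mean level fell.

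Genes of the inflammasome and of cell death mostly rose, receptors, caspases and caspase inhibitors among them. Of 21 measured inflammasome and cell death genes 16 rose, 11 of them by 2-fold or more, and 3 fell. The death receptor Fas rose by 3.76 (SE 0.207, adjusted p = 2.5e-08) and Casp4, the mouse sensor of LPS in the cytosol, by 3.13 (SE 0.214, adjusted p = 1.47e-07). Cflar, which blocks caspase 8, rose by 2.56, and Gadd45b by 2.51. In the tumour necrosis factor receptor family, Cd40 rose by 4.18 (SE 0.151, adjusted p = 7.11e-10) and 5 of 11 measured rose in all, while 4 fell (2 without replicate 1, with median centring or with quantile normalization).

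Genes for antigen presentation moved mostly upward. In class I, 10 of 14 rose and 2 fell (0 fell without replicate 1, and 1 without replicate 2, replicate 3 or the pairing), led by the class I transactivator Nlrc5 (2.74, SE 0.169, adjusted p = 6.41e-08), H2-Q4 (1.85), the peptide transporter Tap1 (1.69) and the immunoproteasome subunit Psmb10 (1.62). In class II and costimulation, 11 of 13 rose and 1 fell (5 and 0 without the pairing, 10 and 0 without replicate 1, and 11 and 0 without replicate 2), the largest changes being in costimulatory and checkpoint ligands. Cd274, the ligand PD-L1, rose by 4.33 (SE 0.193, adjusted p = 3.85e-09), Cd83 by 2.91 and Icosl by 1.28. Cd86 read 10.90, 9.44 and 9.29 untreated and 12.90, 11.77 and 11.34 at 4 h, a rise of 2.13 (SE 0.129, adjusted p = 5.54e-08), with replicate 1 the highest at both times. H2-Ab1, a class II chain named after its values were seen, read 12.39, 10.47 and 8.49 untreated and 12.60, 11.47 and 9.97 at 4 h, with rises of 0.21, 1.01 and 1.48, the smallest in replicate 1, where it stood highest before treatment.

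Complement and coagulation genes changed in both directions. Of 22 measured 12 rose and 5 fell (9 and 2 without the pairing by replicate number, 10 and 3 without replicate 1, and 11 and 2 without replicate 3). Complement factor B (Cfb) rose by 4.52 (SE 0.217, adjusted p = 7.7e-09), tissue factor (F3), which starts coagulation, by 3.60 and the plasminogen activator inhibitor Serpinb2 by 3.29. Urokinase (Plau) fell from 13.39, 13.60 and 11.90 to 9.83, 11.17 and 10.03, by 2.62 (SE 0.229, adjusted p = 1.12e-06). C1qb and C3ar1, both near the top of the arrays' range, were at −0.031 (adjusted p = 0.677) and −0.063 (adjusted p = 0.464).

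Receptors that place and feed macrophages were split. Of 12 measured chemokine and colony-stimulating factor receptors, 5 rose and 5 fell (3 and 3 without the pairing by replicate number). Ccrl2, an atypical chemokine receptor, rose by 4.72 (SE 0.173, adjusted p = 7.19e-10). Cxcr4, the receptor for Cxcl12, fell by 2.71 (SE 0.219, adjusted p = 5.62e-07), and the fractalkine receptor Cx3cr1 fell from 12.66, 12.90 and 11.68 to 9.14, 10.69 and 9.35. The Fc receptors Fcgr4, Fcgr2b and Fcgr1 rose by 1.69, 1.56 and 0.77, while Fcgr3 and the shared chain Fcer1g were at 0.075 (adjusted p = 0.632) and 0.10 (adjusted p = 0.208). Of 23 phagocytic, scavenger and lectin receptors 8 rose and 7 fell (3 and 3 without the pairing). Both counts lay near the shares of all genes that rose (26.7%) and fell (28.3%). Olr1, a receptor for oxidised lipoprotein, rose by 3.01 (SE 0.106, adjusted p = 5.98e-10), and the mycobacterial glycolipid receptor Clec4e by 1.66.

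Among 21 measured lineage factors, 9 rose and 9 fell (5 and 8 without the pairing). Tfec rose by 2.05 (SE 0.293, adjusted p = 7.1e-05). Its relative Tfeb, a driver of lysosome genes, fell by 1.74 (SE 0.165, adjusted p = 2.25e-06), Mef2c fell by 1.69 and Bhlhe41 fell by 3.08. Id2 and Maf were at −0.15 (adjusted p = 0.36) and 0.16 (adjusted p = 0.338). Of 13 measured markers of alternative activation, 6 rose and 1 fell (2 and 1 without the pairing, 3 and 1 with quantile normalization, and 2 and 3 without replicate 1), led by the chemokines Ccl22 and Ccl17 (3.14), and Stat6, the factor through which interleukin 4 acts, fell by 0.88. The receptor Il4ra rose by 0.76, a call that ended without replicate 1 (adjusted p = 0.0989) or 2 (0.0612).

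**Figure D2:**
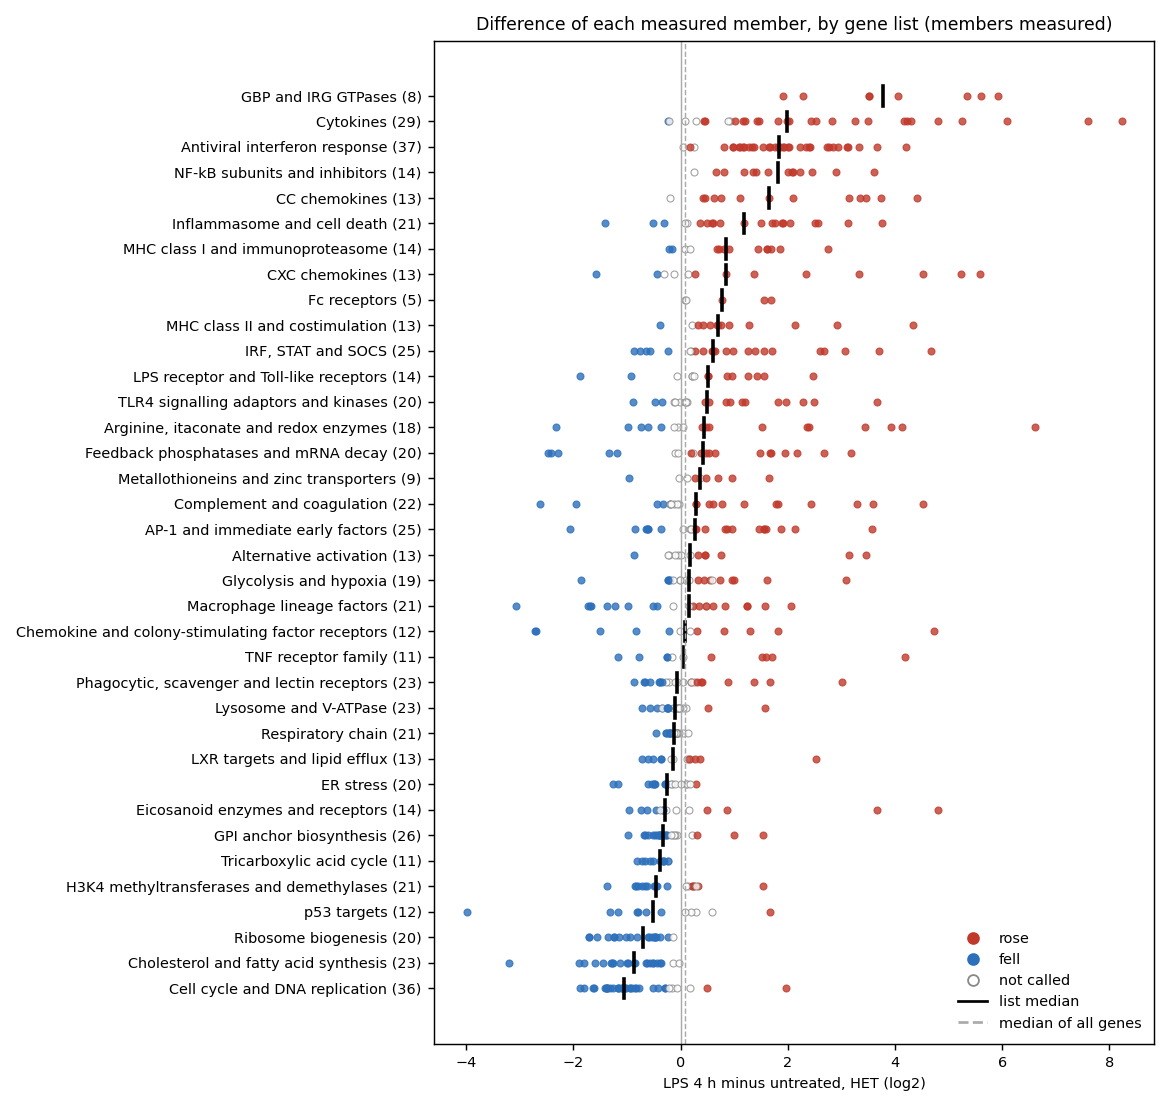
Difference LPS 4 h minus untreated in HET macrophages (log2, horizontal axis) for each measured member of 36 gene lists, with the number of members measured in parentheses, red for genes that rose, blue for genes that fell, open for genes not called, a black bar at the list median and a dashed line at the median of all genes (0.085). The GTPase list lies highest, at a median of 3.79, and the cell cycle list lowest, at −1.05.

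On the falling side, genes of sterol and fatty acid synthesis fell nearly throughout. Of 23 measured, 21 fell and 9 of them by 2-fold or more, with a median of −0.87. Scd2, a desaturase that makes monounsaturated fatty acids, read 11.73, 11.69 and 12.11 untreated and 7.20, 8.84 and 9.89 at 4 h, and fell by 3.20 (SE 0.354, adjusted p = 7.97e-06). Msmo1 and Sqle, enzymes of the sterol pathway after squalene is made, fell by 1.90 (SE 0.187, adjusted p = 3.02e-06) and 1.60. The fatty acid synthase Fasn fell by 1.80. The fall was larger in replicate 1, with list medians of −1.42, −0.84 and −0.54 by replicate. Srebf2, the factor that drives these genes, was at −0.14 (adjusted p = 0.297), and Scd1 at −0.031 (adjusted p = 0.839). Beside them, Ch25h, which makes 25-hydroxycholesterol, rose from 11.90, 12.40 and 9.53 to 13.92, 13.88 and 13.62, by 2.53 (SE 0.435, adjusted p = 0.000319), with replicate 3 far lower than the others before treatment. In the list of liver X receptor (LXR) targets it was 1 of 4 of 13 that rose, and 5 fell (1 and 2 both without the pairing and without replicate 1). Of all genes, 26.7% rose and 28.3% fell. Mylip, which marks the lipoprotein receptor for decay, fell by 0.72, a call that ended without replicate 1 (adjusted p = 0.144).

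Central carbon metabolism changed less. Of 11 measured genes of the tricarboxylic acid cycle 10 fell (3 without the pairing by replicate number), with a median of −0.39 and a largest fall of 0.81 in Idh3a (SE 0.189, adjusted p = 0.00313). Idh2, Idh1 and Pdha1 fell by 0.73, 0.67 and 0.56. Of 21 respiratory chain genes 7 fell (1 without the pairing, 4 without replicate 1 or replicate 2, and 11, with 2 rising, under quantile normalization), the largest fall being 0.46 in Sdhb, the iron-sulphur subunit of succinate dehydrogenase. This count lay near the share of all genes that fell, 28.3%, and below the 44.6% of the highest class of mean level. In glycolysis and hypoxia, 8 of 19 rose and 5 fell (5 and 0 without the pairing, 8 and 1 both without replicate 1 and with median centring, and 7 and 8 with quantile normalization). Pfkfb3, which makes an activator of glycolysis, rose by 3.08 (SE 0.227, adjusted p = 2.66e-07), the transporter Slc2a6 by 1.62, and the oxygen sensor Egln3 fell by 1.85 (SE 0.33, adjusted p = 0.000424). Of 23 lysosome and V-ATPase genes 8 fell (13 with quantile normalization) and 2 rose, the channel Mcoln2 by 1.57 (SE 0.266, adjusted p = 0.000282). The 8 falls were also near the share over all genes.

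Genes of the cell cycle and DNA replication fell most as a list, and the arrays of replicate 1 started from another level. Of 36 measured, 30 fell, 20 of them by 2-fold or more, and 2 rose (1 rose without replicate 1). The median difference was −1.05, and −0.78, −0.96 and −0.95 in replicates 1 to 3. Before treatment the median level of the list was 8.95 in replicate 1 and 11.54 and 11.54 in the others. Without replicate 1, 33 of 36 fell with a median of −1.03. Without the pairing 6 fell, and with the replicate number as a random block 14 fell. In bulk RNA such a fall cannot be told apart from fewer dividing cells with the same RNA in each. E2f2, an activator of S phase genes, read 9.58, 10.26 and 10.42 untreated and 8.13, 8.18 and 8.33 at 4 h, and fell by 1.87 (SE 0.121, adjusted p = 8.87e-08). Cyclin E2 (Ccne2) fell by 1.79 and cyclin D1 (Ccnd1) by 1.63 (SE 0.202, adjusted p = 2.12e-05). Its relative cyclin D2 (Ccnd2) rose, from 11.04, 11.64 and 10.15 to 13.43, 13.05 and 12.28, by 1.97 (SE 0.182, adjusted p = 1.77e-06). The proliferation marker Mki67 read 8.97, 13.14 and 12.90 untreated and 10.96, 12.31 and 12.30 at 4 h, so that it was higher at 4 h in replicate 1 and lower in the others, and its mean of 0.18 did not pass (adjusted p = 0.719).

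Nucleolar genes for ribosome biogenesis fell too, mostly after 2 h. Of 20 measured 19 fell, 8 of them by 2-fold or more, with a median of −0.70 at 4 h against −0.10 at 2 h. Between the times 18 of the 20 fell further. Polr1b, a core subunit of RNA polymerase I, read 11.22, 10.59 and 10.93 untreated, 10.23, 10.75 and 10.50 at 2 h and 8.47, 9.62 and 9.52 at 4 h. It fell by 1.71 by 4 h (SE 0.234, adjusted p = 4.93e-05), and Wdr12, Dkc1 and Nop56, which process ribosomal RNA, by 1.71, 1.56 and 1.35. Among 12 measured p53 targets 7 fell and 1 rose (3 rose without replicate 1 or with median centring, and 2 without replicate 2 or with quantile normalization), led by Sesn1 and its relative Sesn2 (fell by 1.31), while the antiproliferative gene Btg2 rose by 1.66 (SE 0.112, adjusted p = 1.29e-07). The p53 list's median level untreated was 9.66, and its 7 falls lay near the 54.8% of all genes that fell in the next to highest class of mean level. In the highest class of mean level, 44.6% of all genes fell. Of 20 endoplasmic reticulum stress genes, with a median level untreated of 11.45, 12 fell (9 without the pairing, without replicate 2 or with quantile normalization, and 8 without replicate 1). Among them were the sensor Ern1 (by 1.26, SE 0.167, adjusted p = 3.85e-05) and Dnajb9 (by 1.16), and the chaperone Hspa5 was at 0.10 (adjusted p = 0.265).

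Chromatin genes around Kmt2b fell more often than they rose, as bright genes did in general. Of 21 measured methyltransferases for lysine 4 of histone H3, their partners and demethylases, 13 fell and 5 rose, with a median of −0.45 (−0.24 and 10 lower with quantile normalization, and 3, 2 and 1 rose without replicate 2, without replicate 3 and without the pairing). The list's median level untreated was 10.67, and 54.8% and 44.6% of all genes in the next to highest and highest classes of mean level fell. Whether the list differs from genes of its level was not tested. Kdm6b, a demethylase of histone H3 lysine 27, read 9.56, 8.60 and 8.67 untreated, 11.53, 11.71 and 10.86 at 2 h and 10.78, 10.62 and 10.03 at 4 h, a rise of 1.53 at 4 h (SE 0.183, adjusted p = 1.52e-05). Kdm2b fell by 1.38 (SE 0.0971, adjusted p = 1.86e-07), the shared subunit Wdr5 by 0.86 and the methyltransferase Setd1a by 0.83. Of 26 measured genes for glycosylphosphatidylinositol (GPI) anchor synthesis 17 fell (11 without the pairing and 12 with quantile normalization) and 3 rose. The GPI list's median level untreated was 10.04, near the border (10.05) between the classes in which 54.8% and 44.6% of all genes fell. It too was not tested against genes of its level. The mannosyltransferase Pigv rose by 1.54 (SE 0.117, adjusted p = 3.4e-07), Pigb fell by 0.98 and Piga, the catalytic subunit of the first step, by 0.69. Pigp, a further subunit of that step, read 8.98, 8.93 and 9.07 untreated and 9.35, 9.18 and 9.10 at 4 h, a difference of 0.22 (adjusted p = 0.0577). Its value rested on the processing: it was 0.53 (adjusted p = 0.00069) with quantile normalization and −0.34 (adjusted p = 0.094) with the mean of its probe sets, it passed with arrays centred on their medians (0.25, adjusted p = 0.0303), dim genes left out (0.0491), a random replicate block (0.0362) or replicate 3 left out (0.0425), and it did not under the other alternatives. Of 9 metallothionein and zinc transporter genes 5 rose (2 without the pairing), led by Slc30a4 (1.64, SE 0.235, adjusted p = 7.33e-05).

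The arrays carried the marks of macrophages at both times. The 10 macrophage markers had a median level of 13.61 untreated and a median difference of −0.064. Of these, 2 rose, Cd14 by 0.87 and Fcgr1 by 0.77, and 2 fell (2 and 0 without the pairing, 2 and 1 without replicate 1 or 2, and 2 and 4 with quantile normalization). Lyz2 and Cd68 were at −0.033 (adjusted p = 0.671) and −0.10 (adjusted p = 0.163), the receptor Csf1r fell by 0.21 and Itgam fell by 0.31, and the calls of both ended without replicate 1 (adjusted p = 0.0626 and 0.0748), and that of Csf1r without replicate 2 (0.0991). Markers of several other cell types lay low, and some moved with the treatment. The measured markers of T, natural killer, erythroid and mast cells lay between 4.68 and 8.33 on all 6 arrays, and 2 of these 19 rose (the T cell marker Cd8a by 0.33 and the mast cell marker Tpsb2 by 0.25, a call that ended without replicate 1 or 2). Of 5 B cell markers, from 5.28 to 9.95, Cd79b fell by 0.50 and Ms4a1 rose by 0.38, and neither call held with quantile normalization. Of 12 neutrophil markers 7 rose and 1 fell (2 and 0 without the pairing, and 5 and 0, 4 and 0 and 2 and 1 without replicates 1, 2 and 3), at list medians of 7.78 to 8.62 untreated and 8.28 to 8.74 at 4 h, with Ngp up by 0.79 (a call that ended without replicate 2 or 3) and S100a9 by 0.78. Single neutrophil markers lay between 5.69 and 11.87 on the 6 arrays, and Ly6g, the defining one, between 6.53 and 6.78. All 7 stromal markers, at levels from 6.96 to 10.63, rose (1 without the pairing), Pdgfrb by 1.62 and the others by 0.25 to 0.48. Of 7 dendritic cell markers 5 rose (2 without replicate 2, 3 without the pairing and 3 with quantile normalization), Ccr7 by 1.29. The part of such cells in the changes described above was not tested. Actb and B2m, often used as references, were at 0.031 (adjusted p = 0.662) and 0.074 (adjusted p = 0.3), and of 9 measured reference genes 1 rose and 4 fell (0 and 1 without the pairing, and 0 and 2, 0 and 1 and 0 and 3 without replicates 1, 2 and 3). Those 4 falls lay near the 44.6% of all genes that fell in the highest class of mean level.

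The 2 h arrays show when the response of 4 h was reached. The untreated arrays are common to both responses, so the step from 2 h to 4 h was tested directly: 1508 genes rose between these times (7.74% of those tested) and 2142 fell (11%). The total of 3650 was 1594 without the pairing by replicate number, 1943 when fitted on HET arrays alone and 2200 without replicate 2. Of the 5202 genes higher at 4 h, 1287 (24.7%) rose further after 2 h and 59 (1.13%) came back down. Of the 5517 lower at 4 h, 1927 (34.9%) fell further and 40 (0.725%) came back up. Both sets were chosen by calls on the same 4 h arrays, which favours a further step over a return. The balance of these shares was therefore not tested. Il6 read 12.98, 11.59 and 12.74 at 2 h and gained a further 0.91 (SE 0.254, adjusted p = 0.0241). Ifnb1 was past its peak: it read 9.81, 8.78 and 8.68 at 2 h, and fell by 1.44 from 2 h to 4 h (SE 0.234, adjusted p = 0.000926). Both genes had therefore made most of their rise within 2 h in each replicate.

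Other genes rose by more than 2 log2 units between 2 h and 4 h. Gbp4 read 11.04, 7.96 and 8.42 at 2 h and rose by 3.27 from then to 4 h (SE 0.346, adjusted p = 5.39e-05). Lipg rose by 2.95 over the same interval, the interleukin 23 receptor Il23r by 2.39 (SE 0.135, adjusted p = 1.02e-06), the adaptor Scimp by 2.35 and BC023105, which had gained 3.93 by 2 h, by 2.31. These 5 were the largest late rises among genes called at 4 h. Among late falls, Pde3b was at −0.51 from untreated at 2 h (adjusted p = 0.188) and fell by 2.87 after it (SE 0.273, adjusted p = 3.1e-05). Gnl3, the nucleolar protein nucleostemin, read 10.94, 10.52 and 10.55 untreated, 9.99, 10.52 and 10.51 at 2 h and 8.17, 8.19 and 8.22 at 4 h, so that replicates 2 and 3 held their level until 2 h. Gcnt1, Mtss1 and Plau fell by 2.32, 2.24 and 2.12 after 2 h.

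**Figure D3:**
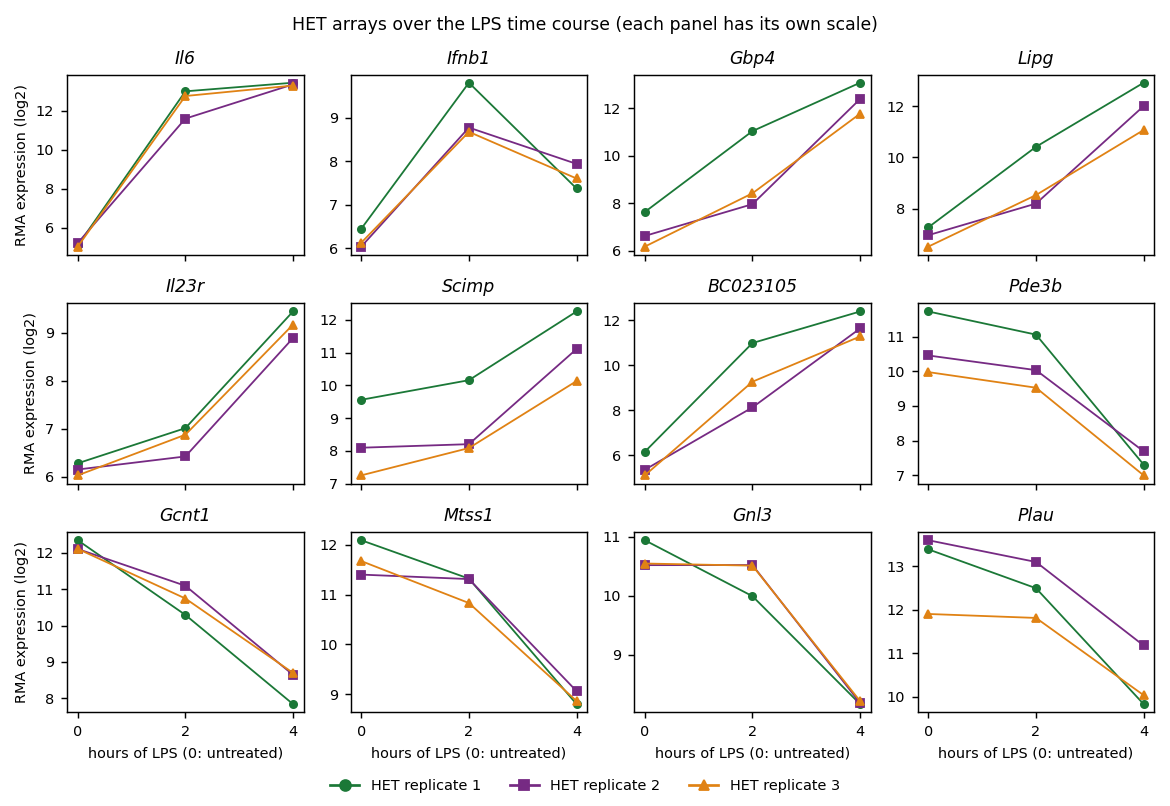
Expression (log2, vertical axis, with its own scale in each panel) against hours of LPS, with 0 for untreated, for Il6, Ifnb1 and the 10 genes with the largest changes between 2 h and 4 h, with 1 line per HET replicate. Ifnb1 peaks at 2 h in all 3 replicates, Il6 has made most of its rise by then, and Il23r, Scimp, Pde3b, Mtss1, Gnl3 and Plau change mainly after 2 h.

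The size of the response differed between replicates. By 4 h, 1053, 829 and 773 genes were at least 2-fold higher in replicates 1, 2 and 3, and 1721, 987 and 968 at least 2-fold lower, with no test on these counts. Over the genes called at 2-fold or more, the median rise was 1.81, 1.61 and 1.5 and the median fall 1.58, 1.24 and 1.22. Among genes called at 4 h, Slamf1, a lymphocyte and macrophage surface receptor, varied most. It read 6.12, 5.89 and 5.94 untreated and 11.86, 8.01 and 6.38 at 4 h, rises of 5.73, 2.12 and 0.44. Il2ra, the alpha chain of the interleukin 2 receptor, rose by 5.98, 3.76 and 2.06. Osmr, the oncostatin M receptor, rose by 3.88, 0.83 and 0.29, and Timp1, an inhibitor of matrix proteases, by 4.75, 1.65 and 1.24. In these 4 genes replicate 1 had the largest rise. Saa3 differed by its untreated levels (8.36, 6.75 and 10.79) and met at 4 h (13.57, 13.39 and 13.61).

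**Figure D4:**
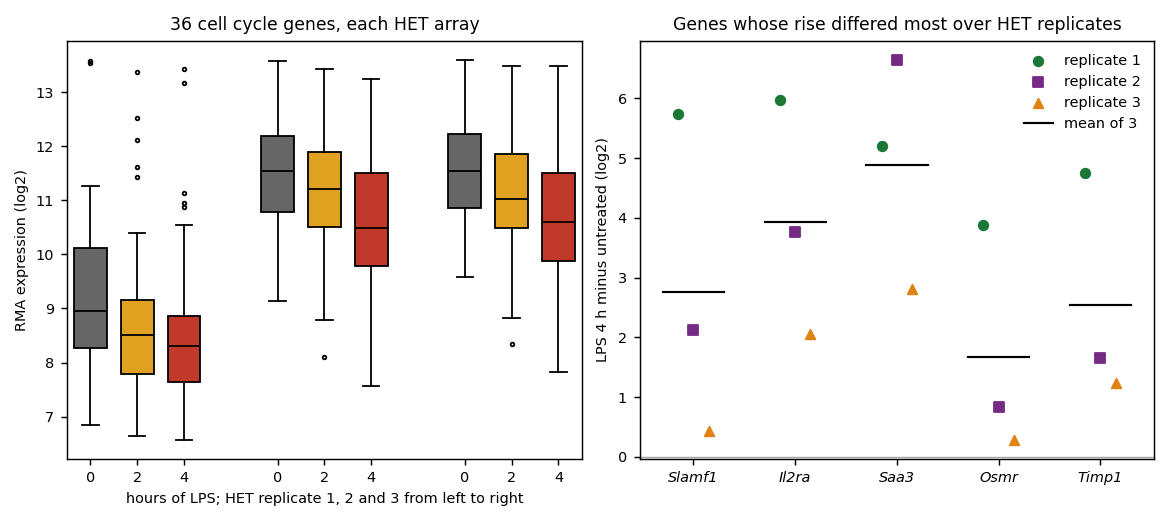
Left, expression (log2) of the 36 measured cell cycle genes on each of the 9 HET arrays as boxes (median line, quartile box, whiskers to 1.5 times the box length, points beyond), at 0, 2 and 4 h of LPS for replicates 1, 2 and 3 from left to right. Right, the difference LPS 4 h minus untreated (log2) in each replicate, with a bar at their mean, for the 5 called genes that varied most over replicates, of which Slamf1 ranges from 0.44 to 5.73.

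The KO cells, measured at the same times, allow the HET response to be set beside that of cells with no intact copy of Wbp7. Far more genes passed in HET (10719, 55%) than in KO (5575, 28.6%), a difference of counts that was itself not tested. Of the genes called in HET, 48.1% were called in KO in the same direction, and of those called in KO, 92.4% were called in HET in the same direction. The difference of the 2 responses, which share no array, passed for 115 genes (0.591%). In 56 of these (0.288%) the KO value lay below a rise in HET, in 5 of them below 0, and in 59 (0.303%) it lay above a fall in HET, in 7 of them above 0 (56 and 59 became 51 and 29 with arrays centred on their medians, and 58 and 34 with quantile normalization). The count of 115 rests on each KO replicate: it was 4, 3 and 9 without KO replicate 1, 2 and 3, 257, 250 and 135 without HET replicate 1, 2 and 3, and 10 without the pairing by replicate number.

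Sesn1 fell by 3.98 in HET and by 1.90 in KO, a difference of 2.08 (SE 0.406, adjusted p = 0.0451). Cx3cr1 changed by −3.53, −2.20 and −2.33 in the HET replicates and by −1.17, −0.87 and −0.94 in the KO replicates, a difference of 1.69 (SE 0.26, adjusted p = 0.0193). Gnl3, Bhlhe41 and Gapt were likewise lowered less in KO, with differences of 1.57, 1.43 and 1.35. On the rising side, Rasgrp1, an exchange factor that activates Ras, rose by 4.29, 3.91 and 4.05 in HET and 2.21, 1.98 and 2.68 in KO, a difference of −1.79 (SE 0.163, adjusted p = 0.000658). The HET and KO replicates of both Cx3cr1 and Rasgrp1 did not overlap, which adds no evidence, as both genes were chosen by this difference. The other rises that were smaller in KO were those of F3 (−2.58), the G protein subunit Gnb4 (−2.08), the homeobox factor Lhx2 (−2.03) and the matrix proteoglycan versican, Vcan (−1.95). The leading genes of the HET response did not pass this test: the difference was −0.68 for Il6 (adjusted p = 0.362), −0.19 for Il1a (adjusted p = 0.705) and 0.01 for Gbp5 (adjusted p = 0.99). With 3 replicates in each genotype, these values do not show that the responses were alike.

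**Figure D5:**
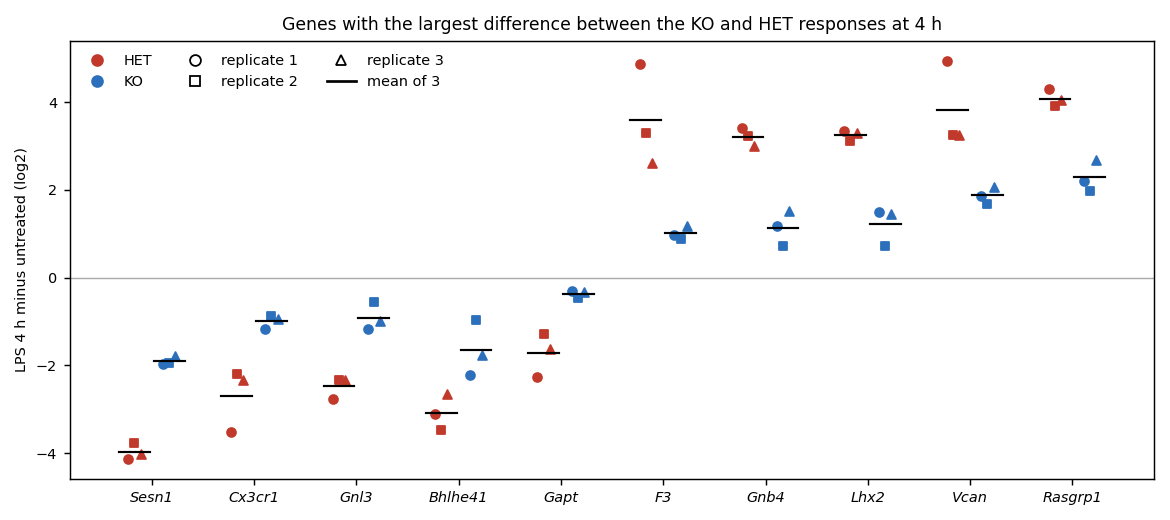
Difference LPS 4 h minus untreated (log2, vertical axis) in each HET (red) and KO (blue) replicate, with a bar at the mean of 3, for the 5 called genes with the highest KO minus HET difference (left) and the 5 with the lowest (right). For Rasgrp1 the 3 HET rises lie from 3.91 to 4.29 and the 3 KO rises from 1.98 to 2.68, and the F3 rise ranges from 2.61 to 4.88 over HET replicates.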

How the data were processed

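Expression was measured on 18 Affymetrix Gene 1.0 ST arrays, 3 in each of 6 groups. The authors deposited log2 values for 25344 probe sets, made with RMA in Partek 6.5, per the submitters' processing notes; the RMA settings and any later filter are not stated there. RMA subtracts background and aligns the arrays' distributions, so a change shared by most genes would be reduced. Platform annotation gave a single gene for 21137 probe sets, several for 1530 and none listed here for 2677; each of 19475 genes was read from its brightest single-gene probe set (915 genes had several).

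Differences were fitted with limma 3.58.1 in R 4.3.3 on all 18 arrays, with the replicate number within a genotype as a block (8 residual degrees of freedom) and 1 coefficient for each time and genotype against untreated. Benjamini-Hochberg adjustment ran over the 19475 genes, with a threshold of 0.05. The labels do not say that a replicate number marks a culture. Deviations from the group means correlated at 0.481 to 0.796 in the 9 HET pairs with the same number and at −0.687 to 0.287 in the 18 pairs with different numbers, which was taken as pairing. Tested on simulated data for the 4 h contrast in HET cells over 19475 genes, the fit called 68 of 100 genes changed by 0.5 log2 units and 98 of 100 changed by 1. It also called 11 genes left unchanged. Few genes were changed and the noise was independent between arrays, whereas 55% of genes were called in the data. The rates may therefore differ there.

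Named genes were Wbp7, Tlr4, Cd14, Ifnb1 and Pigp; the 15 largest rises and falls whose arrays did not overlap; from each gene list the 4 called members with the largest change and the 2 brightest not called; the 5 called genes with the largest KO minus HET difference each way and the 5 with the largest change each way between 2 h and 4 h; and the 5 that varied most over replicates. Gene lists and members were chosen with earlier results of these data known. Alternatives changed the block, the arrays fitted, scaling, dim genes, probe sets, variance prior, array weights and replicates. Promoter windows of 250 bases came from RefSeq (GRCm38.p6), which listed 15507 of the genes. Figures used Python 3.11.15 and matplotlib 3.10.9.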

Additional observations from a re-analysis of the deposited data

Results flagged for a closer look

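For 13 of the genes named above, the 4 h response differed between KO and HET cells. The test was the interaction term of limma at an adjusted p under 0.05, which 0.591% of all genes passed. The 13 cannot be set against that share, because Gapt, Gnb4, Lhx2, Vcan and Rasgrp1 were named for this difference alone. Sesn1, Cx3cr1, Gnl3, Bhlhe41 and F3 were named for it and by another rule as well. Mtss1, Il23r and Nr1h3 were named by other rules only. In HET cells the following fell, and in KO cells the difference from untreated was nearer to 0. Sesn1 was at −3.98 in HET and −1.9 in KO (KO minus HET 2.08), and Cx3cr1, the fractalkine receptor, at −2.69 and −0.99 (1.69). The nucleolar gene Gnl3 was at −2.48 and −0.91 (1.57), the repressor Bhlhe41 at −3.08 and −1.65 (1.43), Gapt at −1.72 and −0.37 (1.35) and Mtss1, a membrane-bending protein, at −2.81 and −1.73 (1.07).

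Another 6 rose in HET cells and rose less in KO cells. Tissue factor F3 was at 3.6 in HET and 1.01 in KO (KO minus HET −2.58), Gnb4 at 3.21 and 1.14 (−2.08) and the homeobox factor Lhx2 at 3.25 and 1.22 (−2.03). Versican (Vcan) was at 3.82 and 1.87 (−1.95), Rasgrp1 at 4.08 and 2.29 (−1.79) and the interleukin 23 receptor Il23r at 3.01 and 1.56 (−1.45).

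Nr1h3, which encodes the liver X receptor alpha, had means on opposite sides of 0, at −0.51 in HET and 0.73 in KO (KO minus HET 1.25). Its call in HET ended without HET replicate 1 (−0.20, adjusted p = 0.319). Which of these differences pass depends on single replicates, since leaving out any 1 KO replicate, with its arrays at every time, left 3 to 9 of the 115 calls over all genes.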

How the results depend on the processing

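Of 198 named genes called at 4 h in HET cells, 162 kept their call and direction under every alternative that tested them, and 178 kept it whichever HET replicate was left out. The count of genes called at 4 h (10719) was 7085 with no replicate block and 6767 when fitted on the 6 arrays of the contrast alone, and 8421 to 9104 with 1 HET replicate left out. The step from 2 h to 4 h (3650) had 1594 calls with no replicate block, 1943 on HET arrays alone and 2200 to 3870 with 1 HET replicate left out. The KO minus HET difference (115) had 10 calls with no replicate block, 306 with array quality weights and 3 to 257 with 1 replicate left out. The cause of these shifts was not tested. Calls of 2-fold or more (1949) ranged from 1741 to 2139. Without the replicate block, 23 of 37 gene lists kept their number of calls within 1.5 times, and on 6 arrays alone 27 did, with fewer in lists of small changes (H3K4 enzymes 11, GPI 13, lysosome 5 and endoplasmic reticulum stress 4 calls). Quantile normalization left 8683 genes called, and gave 13 calls in the respiratory chain list in place of 7. A random replicate block (correlation 0.398) gave 10450 calls, and 34 of 37 lists stayed within 1.5 times. The others had fewer calls: cell cycle 15, class II and costimulation 7 and respiratory chain 3. Among named genes not called, 2 turned sign and passed: Hk1 was at 0.26 (adjusted p = 0.00399) with the mean of its probe sets, and Mki67 at −0.72 (adjusted p = 3.55e-05) without HET replicate 1, with a range of −0.72 to 0.69 over the 3 replicates left out. Levels near either end of the arrays' range limit what the fold sizes can show.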
